A study of Mus musculus with 6 samples.

Results

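The 8 genes described here encode CD40 ligand and its receptor, together with related ligands and receptors of the tumor necrosis factor (TNF) superfamily. They were taken by gene name, as 8 of the 32285 genes in the count matrices, with earlier results of these data known. Expression was counted in unique molecular identifiers (UMIs, one per captured RNA molecule). The ligands are Cd40lg (CD40 ligand), Tnfsf8 (CD30 ligand), Tnfsf11 (RANKL), Tnfsf10 (TRAIL) and Tnf. The receptors are Cd40, Tnfrsf8 (CD30) and Tnfrsf11a (RANK).

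TNF superfamily ligands are mostly membrane proteins that act on receptors of a neighbouring cell or are shed from the surface. Their receptors recruit TRAF adaptors and turn on NF-κB, and some carry a death domain or, like the receptors of TRAIL, start apoptosis. CD40 ligand on activated helper T cells is best known for licensing B cells and dendritic cells through CD40, RANKL for osteoclast formation and for the survival of dendritic cells through RANK, and TNF for inflammation driven by macrophages. TRAIL kills sensitive cells, and CD30 ligand costimulates lymphocytes that carry CD30.

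The study asked whether blocking the checkpoint receptor CTLA4 with ipilimumab, an antibody to the human protein, changes fibrotic lungs. All 6 mice were 12-week-old males of the hCTLA4 genotype, in which human CTLA4 exons 2 and 3 replace the mouse ones on a C57BL/6 background, so the controls carried the human allele as well. All had received oropharyngeal bleomycin at 1.25 U/kg in 2 doses 2 weeks apart, which injures the lung and leaves fibrosis. From day 21 after the second dose, 3 mice were given IgG1 isotype antibody and 3 were given ipilimumab, both intraperitoneally at 5 mg/kg for 4.5 weeks. No group without bleomycin was analysed here. The right lung of each mouse was digested with enzymes at warm temperature and loaded as 1 library of its own, so each of the 6 libraries is 1 mouse. The counts come from 3′ ends aligned to the mouse genome and do not check the exchanged exons.

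The libraries held between 37666042 and 48612412 UMIs. After cell calling, quality filters and doublet removal, 24260 cells were kept, from 3269 to 4348 per mouse, with a median of 5909.5 to 7882 UMIs per cell. Pairs of libraries shared from 0 to 8 cell barcodes. In ipilimumab replicate 1 cells held 78.9% of the UMIs and 22056 barcodes carried at least 100 UMIs, against at least 92.4% and at most 6230 in the other mice. Because this library stands apart, the main results are also given without it. All but 42 cells, which stayed unnamed (29 of them in IgG1 replicate 2), fell into 16 classes by marker genes, among them 5060 T-like, 8579 B-like, 3208 alveolar macrophage-like, 1082 endothelial-like, 110 cDC2-like (type 2 conventional dendritic cells) and 85 migratory DC-like cells. None of the superfamily genes was used to cluster them. Within T-like cells, the CD4 gate (1590 cells with a Cd4 UMI and none of Cd8a or Cd8b1) and the CD8 gate (1973 cells with the reverse) were compared, and 1497 T-like cells fell in neither. The 7 T cell markers summed to 2808 to 3301 CPM (a gene's UMIs scaled to a common total of UMIs over the cells summed) in the CD4 gate and 2355 to 2777 CPM in the CD8 gate over the 6 mice.

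In the GRCm38 assembly (the mm10 build) with the GENCODE M21 annotation, all 8 are protein-coding genes. The ligand genes are Cd40lg at chrX:57212143-57224042 on the plus strand, Tnfsf8 at chr4:63831308-63861347 on the minus strand, Tnfsf11 at chr14:78277445-78308043 on the minus strand, Tnfsf10 at chr3:27317028-27342427 on the plus strand and Tnf at chr17:35199381-35202007 on the minus strand. The receptor genes are Cd40 at chr2:165055627-165072948 on the plus strand, Tnfrsf8 at chr4:145267137-145315164 on the minus strand and Tnfrsf11a at chr1:105780718-105847981 on the plus strand.

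The promoter regions of Tnfsf8 and Tnfsf11 are shown because both ligands had a higher level in CD4 than in CD8 T cells, as given further on. They are the bases just upstream of the start in RefSeq (GRCm38.p6), which lists 6 of the 8 genes but not Cd40lg, and for Tnfsf8 the 63 bases nearest to that start were left out because GENCODE counts them as transcript. Capitals mark GGAAA, the core bound by NFAT, a factor switched on by T cell receptor signals. It was searched on both strands as GGAAA or TTTCC, which do not overlap each other. Tnfsf8 is at chr4:63861348-63861534 and Tnfsf11 at chr14:78308044-78308293, both on the minus strand and written 5′ to 3′.
Tnfsf8: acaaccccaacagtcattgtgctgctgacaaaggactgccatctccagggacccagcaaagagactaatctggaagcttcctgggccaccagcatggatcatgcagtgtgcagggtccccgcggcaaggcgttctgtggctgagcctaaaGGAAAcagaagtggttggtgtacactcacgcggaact
Tnfsf11: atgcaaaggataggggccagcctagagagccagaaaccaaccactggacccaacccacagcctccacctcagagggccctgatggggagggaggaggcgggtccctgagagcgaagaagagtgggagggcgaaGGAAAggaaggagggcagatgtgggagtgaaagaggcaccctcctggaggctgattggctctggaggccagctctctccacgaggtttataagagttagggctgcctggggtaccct
Each holds 1 match, which begins 100 bases before the RefSeq start of Tnfsf8 and 117 bases before that of Tnfsf11. Among 32851 promoter windows, 46.5% hold a match in a stretch as long as that of Tnfsf8 (187 bases) and 55.6% in one of 250 bases, so these matches are common and describe the sequence only.

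The UMIs of Cd40lg, Tnfsf8 and Tnfsf11 came mainly from T cells, whereas the other members came mainly from other cells. Of the UMIs of Cd40lg, 84.6% of 2934 lay in T-like cells. The shares for Tnfsf8 and Tnfsf11 in these cells were 87.5% of 4223 and 82.5% of 1985. Tnfsf10 lay mainly in endothelial-like cells (61.7% of 2375) and Tnf mainly in alveolar macrophage-like cells (64.2% of 6402). Of the receptors, Cd40 lay mainly in B-like cells (67.5% of 3820) and Tnfrsf11a in alveolar macrophage-like cells (67.3% of 2294). Tnfrsf8 had no main source among its 545 UMIs, with 21.8% in B-like, 19.6% in T-like and 19.1% in proliferating-like cells. Over the mice the T-like share of Cd40lg ran from 80.6% to 89.1% and the endothelial share of Tnfsf10 from 41.5% to 68.2%, but the B-like share of Tnfrsf8 ran from 2.61% to 47.2%.

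**Figure D1:**
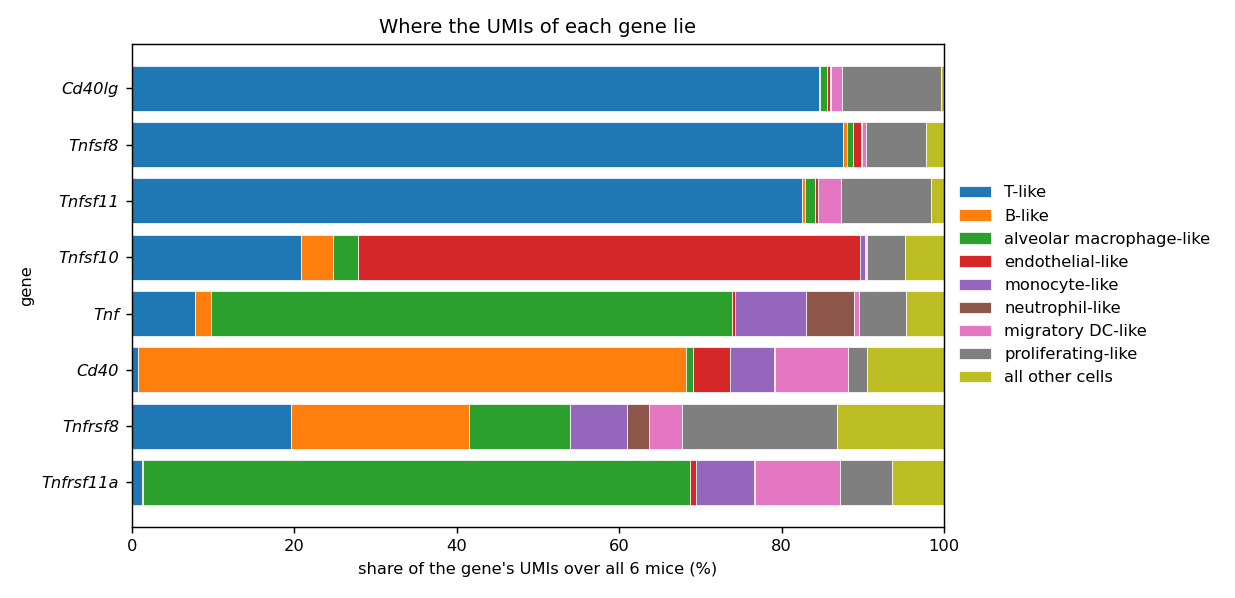
Share of each gene's UMIs (horizontal axis, percent) in the cell classes named in the legend, over all 6 mice. Cd40lg, Tnfsf8 and Tnfsf11 each have at least 82.5% of their UMIs in T-like cells, whereas Tnfrsf8 is spread over many classes.

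These shares depend on how many cells of a class were caught, so the level within each class was set beside them. Migratory DC-like cells, the CCR7-positive dendritic cells that carry antigen to lymph nodes, had the highest mean level of both Cd40 (193.8 ± 62.1 CPM, SD, n = 6 mice) and Tnfrsf11a (131 ± 34.2 CPM, SD, n = 6) although they held 9.06% and 10.4% of the UMIs. This class joins 2 clusters that are not alike. The 54 cells led by Ccl22 and Fscn1 had 289.9 ± 91.9 CPM of Cd40 and 208.9 ± 64.5 CPM of Tnfrsf11a (SD, n = 6), with 9449 CPM of the 6 migratory DC markers over all mice. The 31 cells led by Htr7 and Tnip3, whose marker score lay close to that of the next class, had 49.4 ± 44.9 and 17.9 ± 16.9 CPM (SD, 3 mice with enough cells) and 1316 CPM of these markers. For Cd40 the order went on with cDC1-like cells at 106 ± 52.7 CPM (n = 5), interstitial macrophage-like cells at 68.1 ± 39.6 (n = 4), cDC2-like cells at 48.9 ± 25.9 (n = 6) and B-like cells at 48.8 ± 3.0 (n = 6). Neighbours in this order lay within 1 SD of each other after migratory DC-like cells, and B-like cells stood out only by their small spread. T-like cells had 0.6 ± 0.5 CPM of Cd40, and no Cd40 UMI was found in 1499 NK-like cells, which allows a share of cells with a UMI of up to 0.2%. For Tnfrsf11a the next levels were 60.004 ± 24.3 CPM in interstitial macrophage-like (n = 4) and 22.5 ± 2.4 CPM in alveolar macrophage-like cells (n = 6).

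**Figure D2:**
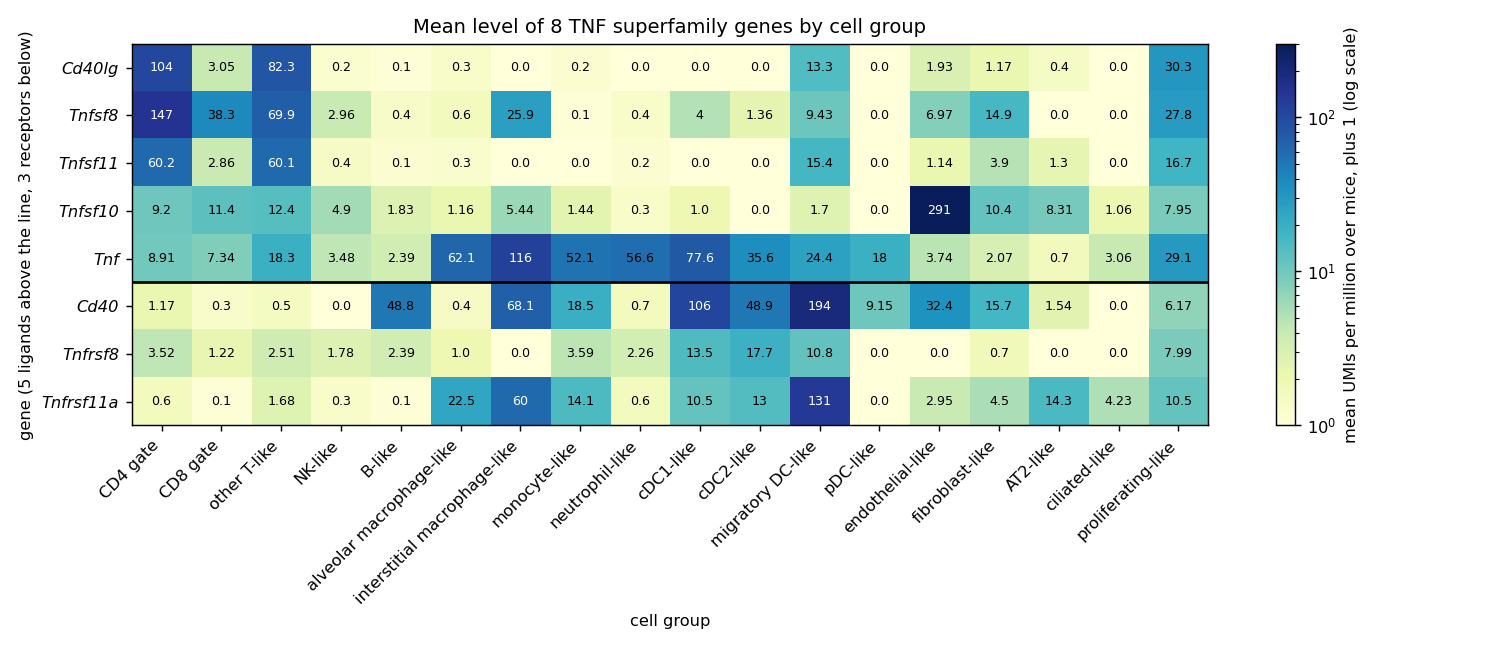
Mean CPM over mice with at least 5 cells (number and color, log color scale) of 5 ligands and 3 receptors in the gates and classes along the horizontal axis. Cd40lg and Tnfsf11 average 104 and 60.2 CPM in the CD4 gate and 3.0 and 2.9 CPM in the CD8 gate, whereas Cd40 and Tnfrsf11a are highest in migratory DC-like cells.

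Among T-like cells, Cd40lg lay almost wholly outside the CD8 gate. Its level in the CD4 gate was 74.0, 86.6 and 99.2 CPM in the IgG1 mice and 128, 100.9 and 133 CPM in the ipilimumab mice. In the CD8 gate the same mice had 0.946, 0.821 and 4.19 CPM, and 4.38, 1.20 and 6.75 CPM. Every mouse thus had far more in the CD4 gate, and the ranges of the gates did not overlap. The difference was 5.00 ± 0.18 on the log2 scale (SE, edgeR with mouse as a block, adjusted p = 1.67e-11), and 5.05 without ipilimumab replicate 1. Of CD4-gate cells, 26.3% to 40.9% per mouse had a Cd40lg UMI, against 0.575% to 3.47% in the CD8 gate and 0% to 0.08% in B-like cells, which should lack it, at median depths of 7818.5, 9671 and 5586 UMIs per cell. With each cell thinned to 1000 UMIs the shares were 6.3% to 10.3% in the CD4 gate and 0.0611% to 0.609% in the CD8 gate. T-like cells in neither gate had 82.3 ± 23.3 CPM (SD, n = 6).

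Tnfsf8, the ligand of CD30, was also higher in the CD4 gate, but the CD8 gate was not empty. It stood at 85.7, 103 and 133 CPM in the CD4 gate of the IgG1 mice and 92.1, 202.7 and 265 CPM in that of the ipilimumab mice, and between 30.6 and 42.3 CPM in the CD8 gate of all 6. The gates did not overlap here either, and they differed by 1.85 ± 0.14 on the log2 scale (SE, edgeR with mouse as a block, adjusted p = 8.24e-08), or by 1.96 without ipilimumab replicate 1. The share of cells with a Tnfsf8 UMI was similar, 17.9% to 24.5% in the CD4 gate and 17.0% to 26.8% in the CD8 gate, with 0.066% to 0.32% in B-like cells. The cells with the gene differed in how many copies were counted. A CD4-gate cell with Tnfsf8 held 6.18 UMIs on average and the highest held 77, whereas a CD8-gate cell held 1.84 and the highest 35. Of the cells with the gene, 147 of 335 in the CD4 gate and 244 of 417 in the CD8 gate held 1 UMI. Without the CD8-gate cell of 35 UMIs, ipilimumab replicate 2 had 28.0 in place of 38.4 CPM in that gate. At 1000 UMIs per cell the shares were 5.68% to 10.8% in the CD4 gate and 2.62% to 3.61% in the CD8 gate, which do not overlap.

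Tnfsf11 followed Cd40lg. The CD4 gate had 24.0, 65.9 and 35.9 CPM in the IgG1 mice and 41.8, 96.8 and 96.9 CPM in the ipilimumab mice, and the CD8 gate 1.3 to 6.4 CPM in all 6. This was a difference of 4.35 ± 0.21 on the log2 scale (SE, edgeR with mouse as a block, adjusted p = 3.52e-10), and 4.31 without ipilimumab replicate 1. Between 9.96% and 20.9% of CD4-gate cells had a Tnfsf11 UMI, against 0.758% to 3.77% of the CD8 gate and 0% to 0.226% of B-like cells. CD4-gate cells with a Tnfsf11 UMI had more Cd40lg (205 ± 56.5 CPM, SD, n = 6) than those without (82.4 ± 26.6 CPM), in 6 of 6 mice. Of these 243 cells, 126 had both genes. For cells with and without Tnfsf8 the Cd40lg levels were 130 ± 38.9 and 95.4 ± 27.0 CPM (SD, n = 6), higher with Tnfsf8 in 5 of 6 mice.

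The other ligands did not pass the test between the gates. Tnf had 8.9 ± 2.9 CPM in the CD4 gate and 7.3 ± 1.0 CPM in the CD8 gate (SD, n = 6, log2 difference 0.26 ± 0.19, adjusted p = 0.325). Tnfsf10 had 9.2 ± 1.9 and 11.4 ± 1.5 CPM (log2 difference -0.33 ± 0.17, adjusted p = 0.178). The receptors Cd40, Tnfrsf8 and Tnfrsf11a were too low in both gates to pass the filter on counts. In all, 3 of the 8 genes were called higher in the CD4 gate and none lower, where 12.2% of the 9453 genes tested were called higher and 9.8% lower. No gene of the family was used to set the gates.

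Of the wider family, 13 of 24 other receptors could be tested between the gates. Of these, 6 were higher in the CD4 gate and none lower, and their median log2 difference was 0.43, against -0.02 for all genes. The largest difference was that of Tnfrsf4 (OX40, a costimulatory receptor of helper and regulatory T cells) at 4.45 ± 0.17 (SE, adjusted p = 2.66e-11). Tnfrsf25 (death receptor 3) differed by 1.99, Tnfrsf9 (4-1BB) by 1.70, Tnfrsf13b (TACI) by 1.18 and Tnfrsf18 (GITR) by 0.93 on the log2 scale. Of the 13 other ligands, 2 could be tested and neither was called. Of 20 tested adaptors and NF-κB genes, 3 were higher in the CD4 gate and none lower, a share near the 12.2% of all genes, by 0.67 for Nfkb1, 0.65 for Birc3 and 0.33 for Birc2, with a median of 0.06 for the list. Of the 10 immediate early genes, which respond within minutes to stimulation and also to tissue digestion, 7 were higher in the CD4 gate and none lower, with a median of 0.49, led by Junb (0.57), Dusp1 (0.75), Btg2 (0.50), Fosb (0.67) and Atf3 (1.75). Their summed level was 3332 to 4417 CPM in the CD4 gate and 2279 to 2907 CPM in the CD8 gate, and their part in the ligand differences was not tested.

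Within the CD4 gate, cells were set apart by Foxp3, which marks regulatory T cells, and Icos, a costimulatory receptor of activated T cells. Cd40lg stood at 99.1, 102 and 130 CPM (IgG1) and 159, 105 and 151.5 CPM (ipilimumab) in the 943 cells with an Icos UMI and no Foxp3. In the 557 cells with neither, it stood at 50.3, 68.7 and 65.3 CPM, and 74.7, 114 and 87.9 CPM. The 90 cells with a Foxp3 UMI had 10.4, 37.0 and 6.8 CPM, and 43.1, 25.9 and 117 CPM, from 1 to 23 UMIs a mouse. Cd40lg was thus higher with Icos than with Foxp3 in 6 of 6 mice and higher with Icos than with neither in 5 of 6. On log2(CPM + 10) these differences were 1.74 ± 0.93 and 0.65 ± 0.40 (SD, n = 6, exact sign-flip permutation p = 0.03125 and 0.0625, adjusted p = 0.134 for both over 15 pairs). The lowest p that 6 mice allow is 0.03125, and no pair of subsets passed after adjustment. Tnfsf8 and Tnfsf10 were higher with Icos than with neither in 6 of 6 mice, by 0.83 ± 0.64 and 0.37 ± 0.29 (SD, exact sign-flip permutation p = 0.03125, adjusted p = 0.134). For Tnf the difference between these subsets was 0.22 ± 0.32 and for Tnfsf11 0.61 ± 0.59 (SD, n = 6). Cells with an Icos UMI were slightly deeper, with a median of 8084 UMIs against 7386.

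**Figure D3:**
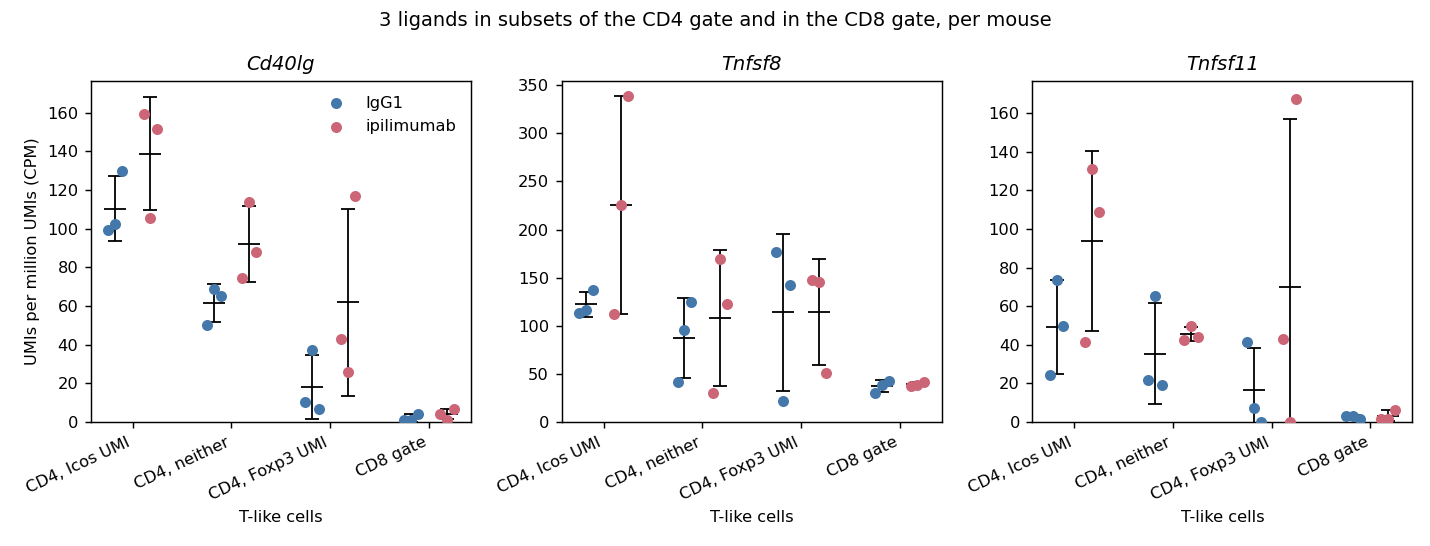
CPM (vertical axis) of Cd40lg, Tnfsf8 and Tnfsf11 in subsets of the CD4 gate and in the CD8 gate. Points are mice, bars the mean and SD of 3 mice per group. Over the 6 mice the CD8 gate has the lowest mean for each of the 3 genes, and the Foxp3 subset, of 11 to 22 cells a mouse, has the widest spread for Cd40lg and Tnfsf11.

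A few cells held many of the ligand molecules. In the CD4 gate the top 10% of cells with the gene (50, 34 and 24 cells) had 36.0% of the UMIs of Cd40lg, 54.1% of those of Tnfsf8 and 42.6% of those of Tnfsf11. Without its highest cell the Tnfsf8 level of ipilimumab replicate 3 was 238 in place of 265 CPM.

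Outside the T cells, Cd40lg, Tnfsf8 and Tnfsf11 were patchy. Migratory DC-like cells had 42 UMIs of Cd40lg and 55 of Tnfsf11, but 49 of the 55 lay in 1 cell of ipilimumab replicate 3, and 4 of the 85 cells had any Tnfsf11. All 42 and all 55 lay in the cluster of 31 cells led by Htr7, in which the 7 T cell markers summed to 946 CPM over all mice, against 7.0 CPM in the cluster of 54. Over the whole class the T cell markers summed to 232 to 379 CPM in IgG1 and 435 to 585 CPM in ipilimumab mice, and their part in these UMIs was not tested. Proliferating-like cells, a mixed class, had 30.3 ± 26.3 CPM of Cd40lg, 27.8 ± 26.2 of Tnfsf8 and 16.7 ± 9.5 of Tnfsf11 (SD, n = 6), with T cell markers at 915 to 1971 CPM. In B-like cells only 3 Cd40lg UMIs were found in 8579 cells, and none in 1854 neutrophil-like cells, which allows a share of cells with a UMI of up to 0.162%.

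Ipilimumab was then compared with IgG1 in 17 cell groups, that is, 15 classes and both gates, with the 32 pDC-like cells too few. Of the 136 combinations of gene and group, 46 had enough counts to be tested. None passed the test, where 6 of 130835 tests over all genes (0.00459%) did. At an unadjusted p under 0.05 there were 11 of the 46, 9 higher and 2 lower with ipilimumab, where 6.91% of the tests over all genes had such a p. Some of these combinations share cells, as the gates lie within T-like cells. DESeq2 called none.

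In the CD4 gate and in all T-like cells the 3 T cell ligands had higher mean levels with ipilimumab, and Cd40lg was the most even of them. Its CD4-gate level was 86.6 ± 12.6 CPM in IgG1 and 121 ± 17.4 CPM in ipilimumab mice (SD, n = 3 each). The lowest ipilimumab mouse (100.9 CPM) stood just above the highest IgG1 mouse (99.2 CPM), so the groups did not overlap, as was so for 7.76% of genes in this direction. The log2 fold change was 0.44 ± 0.14 (SE), or 1.36-fold, and did not pass the test (adjusted p = 0.418). Without ipilimumab replicate 1 it was 0.40 (adjusted p = 0.481). In all T-like cells Cd40lg stood at 35.6, 49.0 and 46.7 CPM against 73.6, 49.4 and 71.2 CPM, again without overlap (8.17% of genes), with a log2 fold change of 0.55 ± 0.16 (SE, adjusted p = 0.363), and 0.46 without ipilimumab replicate 1. In the CD8 gate it was 2.0 ± 1.9 against 4.1 ± 2.8 CPM (SD, n = 3 each, adjusted p = 0.862).

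The make-up of the CD4 gate differed as well. Cells with an Icos UMI and no Foxp3 were 49.2%, 60.4% and 56.2% of the gate in IgG1 and 62.3%, 62.0% and 63.9% in ipilimumab mice, without overlap. Cells with a Foxp3 UMI, which had the lowest mean Cd40lg, were 4.5%, 5.1% and 4.8% against 6.6%, 6.0% and 6.6%, also higher without overlap. Cells with neither were 46.3%, 34.6% and 39.0% against 31.1%, 32.0% and 29.6%. B cell markers in the gate summed to 13.3 to 99.01 CPM in IgG1 and 108 to 154 CPM in ipilimumab mice. The part of the subset shares or of the B cell markers in the Cd40lg difference was not tested. Within the Icos subset Cd40lg was 110 ± 16.8 against 139 ± 29.1 CPM (SD, n = 3 each) and the groups overlapped. In cells with neither gene it ran from 50.3 to 68.7 CPM in IgG1 and from 74.7 to 114 CPM in ipilimumab mice, without overlap. This subset was not tested between treatments. The share of genes without overlap was not computed for it, and was 7.76% in this direction for the whole gate. Cd40 in the gate, at 1, 0 and 0 UMIs in IgG1 and 2, 7 and 7 UMIs in ipilimumab mice, was below the filter. All T-like cells differed in make-up too. They join a cluster led by Icos and Cxcr6 with one led by Lef1 and Dapl1. The Icos cluster held 276, 255 and 275 cells in IgG1 and 365, 388 and 465 in ipilimumab mice. The Lef1 cluster held 555, 444 and 572 against 439, 527 and 499. Cd40lg averaged 96.3 CPM in the Icos cluster and 22.0 CPM in the Lef1 cluster, and Tnf 16.8 and 6.0 CPM. The part of these clusters in the T-like differences was not tested.

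Tnfsf8 and Tnfsf11 differed more on average and less evenly. In the CD4 gate Tnfsf8 was 107 ± 23.9 against 187 ± 87.5 CPM (SD, n = 3 each), a log2 fold change of 0.76 ± 0.30 (SE, adjusted p = 0.572). Ipilimumab replicate 1, at 92.1 CPM, lay among the IgG1 mice and was the lowest of its group. Without this library the log2 fold change was 1.09 and passed the test (adjusted p = 0.0464). In that setting 23 of 9508 genes tested in the CD4 gate were called, against 0 of 9288 with all mice. Tnfsf11 was 41.9 ± 21.6 against 78.5 ± 31.8 CPM (log2 fold change 0.89 ± 0.35, SE, adjusted p = 0.581), with overlap, and the log2 fold change was 1.19 without ipilimumab replicate 1 (adjusted p = 0.185). In the CD8 gate Tnfsf8 was at 37.2 ± 6.0 and 39.3 ± 2.1 CPM (SD, n = 3 each, log2 fold change 0.08 ± 0.14). The difference between the gates in their response was not tested. In proliferating-like cells, a mixed class, the 3 T cell ligands were lower on average with ipilimumab. The log2 fold changes there were -0.23 for Cd40lg, -1.42 for Tnfsf8 and -0.31 for Tnfsf11 (edgeR, adjusted p = 0.946, 0.63 and 0.901).

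Tnf in T cells was low, and its mean was higher with ipilimumab. In all T-like cells it was 7.7, 7.3 and 11.1 CPM against 11.7, 13.1 and 13.5 CPM, without overlap but not past the test (log2 fold change 0.53 ± 0.18, SE, adjusted p = 0.426). The part in this Tnf difference of the T-like clusters given above, which changed in size, was not tested. T-like cells in neither gate had 11.3, 12.2 and 18.5 CPM against 22.1, 22.9 and 22.97 CPM, and were not tested on their own. Its main source, the alveolar macrophage-like cells, had 61.7, 51.9 and 65.8 CPM against 83.8, 54.7 and 54.8 CPM (log2 fold change 0.10 ± 0.16, adjusted p = 0.933), and without ipilimumab replicate 1 the log2 fold change was -0.0896. In these cells 40.5% to 56.4% of cells had a Tnf UMI, against 0.71% to 1.52% of B-like cells. The median depths of these classes were 20995.5 and 5586 UMIs per cell. Most alveolar macrophage-like cells lay in a cluster led by Mmp12 and Spp1 (Tnf 54.7 CPM) and one led by Kcnip4 and Lepr (71.6 CPM). The Mmp12 cluster held 221, 422 and 136 cells in IgG1 and 135, 403 and 404 in ipilimumab mice. The Kcnip4 cluster held 221, 368 and 143 against 134, 293 and 156. Markers of the class summed to 8878 to 10442 CPM in IgG1 and 8708 to 30329 CPM in ipilimumab mice. Their part in the Tnf values was not tested. In neutrophil-like cells 5 mice lay between 44.6 and 46.9 CPM and ipilimumab replicate 3 at 111 CPM. The level of Tnf was highest in interstitial macrophage-like cells, which with enough cells in 2 mice a group had 136 and 181 CPM against 92.5 and 55.7 CPM (log2 fold change -1.07 ± 0.43, SE, adjusted p = 0.876). In monocyte-like cells 125 of 560 Tnf UMIs lay in 1 cell, and without it the level of ipilimumab replicate 1 was 24.6 in place of 85.9 CPM.

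Tnfsf10 was highest in endothelial-like cells, at 290.6 ± 71.1 CPM (SD, n = 6), and was not called. It stood at 376, 228 and 367 CPM in IgG1 and 242, 313 and 218 CPM in ipilimumab mice, which overlap (log2 fold change -0.34 ± 0.22, SE, adjusted p = 0.71). Between 39.9% and 65.7% of these cells had a Tnfsf10 UMI, against 0.592% to 1.498% of B-like cells. Endothelial markers in these cells summed to 7486 to 7928 CPM in IgG1 and 6849 to 7107 CPM in ipilimumab mice, and their part in the Tnfsf10 values was not tested.

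Among the receptors, Cd40 had close group means in B-like cells and its largest fold changes in cDC2-like and proliferating-like cells. B-like cells had 53.7, 50.4 and 45.2 CPM in IgG1 and 46.8, 49.0 and 47.8 CPM in ipilimumab mice (log2 fold change -0.05 ± 0.09, SE, adjusted p = 0.915). In cDC2-like cells the values were 24.1, 23.4 and 35.6 CPM against 51.6, 83.8 and 75.1 CPM, so every ipilimumab mouse lay above every IgG1 mouse, as for 5.79% of genes. The log2 fold change was 1.41 ± 0.37 (SE), or 2.65-fold, and did not pass the test over all genes (adjusted p = 0.668), nor without ipilimumab replicate 1 (1.59, adjusted p = 0.791). These values rest on 7 to 27 cells and 5 to 39 UMIs a mouse. The 6 migratory DC markers in the same cells summed to 31.1 to 345 CPM in IgG1 and 619 to 1632 CPM in ipilimumab mice, with at most 3 and 1 of them at 0 in a mouse, while the 5 cDC2 markers summed to 1467 to 1744 and 1130 to 2149 CPM, and their part in the Cd40 difference was not tested. The class joins 2 clusters here too. In the larger one, of 65 cells led by Cd209a, Cd40 was 9.0, 9.9 and 20.8 CPM against 62.9, 71.4 and 57.5 CPM, from 1 or 2 UMIs in each IgG1 mouse and 10, 17 and 13 UMIs in the ipilimumab mice. That cluster held 7, 13 and 5 cells in the IgG1 mice and 9, 16 and 15 in the ipilimumab mice. In the other, of 45 cells led by Mgl2, the groups overlapped, at 36.1, 72.4 and 68.0 CPM against 39.7, 96.7 and 91.6 CPM. Neither cluster was tested between treatments on its own. The share of genes without overlap was not computed for them. Migratory DC-like cells had 187.5, 214 and 94.8 CPM of Cd40 against 235, 272 and 159 CPM (log2 fold change 0.31 ± 0.36, adjusted p = 0.958), with overlap. In its cluster of 54 cells alone the values were 298, 294 and 136 CPM against 313, 422 and 276 CPM. The migratory DC markers in the class summed to 7022 to 7792 CPM in IgG1 and 4097 to 5064 CPM in ipilimumab mice, where 12 of the 31 cells led by Htr7 came from ipilimumab replicate 3, and the part of either in the Cd40 values was not tested.

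Endothelial-like cells had 24.4, 32.5 and 22.5 CPM of Cd40 in IgG1 and 37.4, 32.0 and 45.9 CPM in ipilimumab mice (log2 fold change 0.59 ± 0.27, SE, adjusted p = 0.576), with overlap in 1 pair of mice. In proliferating-like cells Cd40 was 3.1, 3.1 and 1.6 CPM against 4.9, 12.9 and 11.49 CPM (log2 fold change 1.80 ± 0.49, SE, adjusted p = 0.462). This class mixes lineages, with alveolar macrophage markers at 1538 to 3867 CPM in IgG1 and 2513 to 16204 CPM in ipilimumab mice. Its B cell markers summed to 160 to 354 against 120 to 199 CPM, its plasma cell markers to 942 to 2960 against 270 to 1328 CPM and its migratory DC markers to 67.2 to 141 against 59.9 to 251 CPM. The part of these cells in the Cd40 difference was not tested.

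Tnfrsf8 was sparse everywhere. In cDC2-like cells it had 0, 4 and 1 UMIs in IgG1 mice (0, 15.6 and 7.1 CPM) and 10, 10 and 14 UMIs in ipilimumab mice (32.2, 21.5 and 30.03 CPM). The groups did not overlap, but the gene was below the count filter and was not tested. Without 1 cell of 8 UMIs, ipilimumab replicate 3 fell to 13.4 CPM, which is below an IgG1 mouse. In B-like cells Tnfrsf8 was 2.4, 6.1 and 1.8 CPM against 1.1, 2.6 and 0.4 CPM (log2 fold change -1.26 ± 0.57, SE, adjusted p = 0.733). In the Foxp3 subset of the CD4 gate it reached 19.5 ± 17.5 CPM (SD, n = 6) from 20 UMIs in all.

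Tnfrsf11a had close group means in alveolar macrophage-like cells, which held most of its UMIs. Alveolar macrophage-like cells had 24.6, 20.1 and 22.5 CPM in IgG1 and 24.7, 24.0 and 19.3 CPM in ipilimumab mice (log2 fold change 0.02 ± 0.12, SE, adjusted p = 0.986). Between 29.3% and 36.1% of these cells had a UMI, against 0% to 0.08% of B-like cells, at median depths of 20995.5 and 5586 UMIs per cell. Tnfrsf11a averaged 23.4 CPM in the Mmp12 cluster of alveolar macrophage-like cells given above and 21.9 CPM in the Kcnip4 cluster. Migratory DC-like cells had 80.4, 141 and 174 CPM against 104, 156 and 130 CPM (log2 fold change -0.07 ± 0.36). In interstitial macrophage-like cells the 2 mice a group with enough cells had 65.9 and 24.5 CPM against 70.8 and 78.9 CPM (log2 fold change 0.72 ± 0.53, SE, adjusted p = 0.947).

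**Figure D4:**
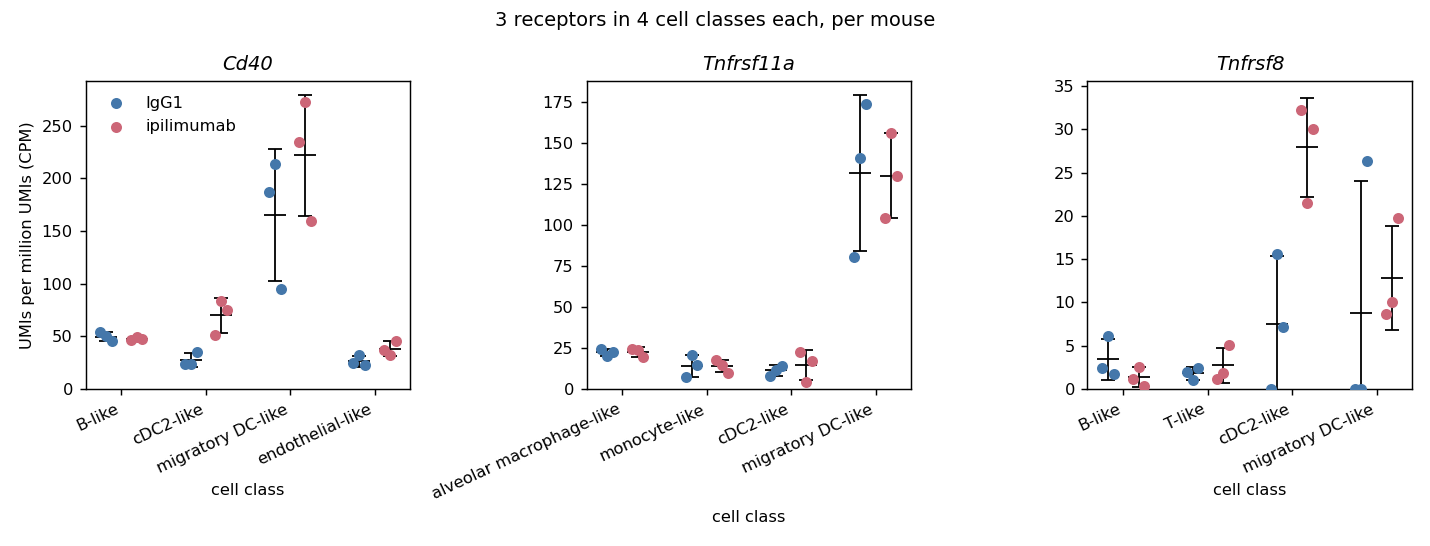
CPM (vertical axis, a scale of its own in each panel) of Cd40, Tnfrsf11a and Tnfrsf8 in 4 cell classes each. Points are mice, bars the mean and SD of 3 mice per group. Cd40 in cDC2-like cells is at most 35.6 CPM in IgG1 and at least 51.6 CPM in ipilimumab mice, while B-like cells overlap.

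Over the 46 tested combinations, 8 had every measured ipilimumab mouse above every measured IgG1 mouse and 2 the reverse, where the shares over all genes and groups were 7.18% and 6.58%. The 8 were Cd40lg and Tnf in the CD4 gate and in all T-like cells, which share cells, Cd40 in cDC2-like and proliferating-like cells, and Tnfrsf11a in proliferating-like and interstitial macrophage-like cells. The 2 lower ones were Tnf in interstitial macrophage-like and Tnfrsf8 in alveolar macrophage-like cells. In interstitial macrophage-like cells only 2 mice a group were measured, and 15.6% of genes lay apart in the higher and 19.0% in the lower direction. None of the other superfamily ligands (51 tests), other receptors (141), adaptors and NF-κB genes (296) or immediate early genes (169) was called between the treatments in any group. At an unadjusted p under 0.05 there were 2 higher and 1 lower among those ligands, 16 and 6 among the receptors, 16 and 6 among the adaptors and 16 and 20 among the early genes, where the share over all tests was 6.91% in both directions together.

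**Figure D5:**
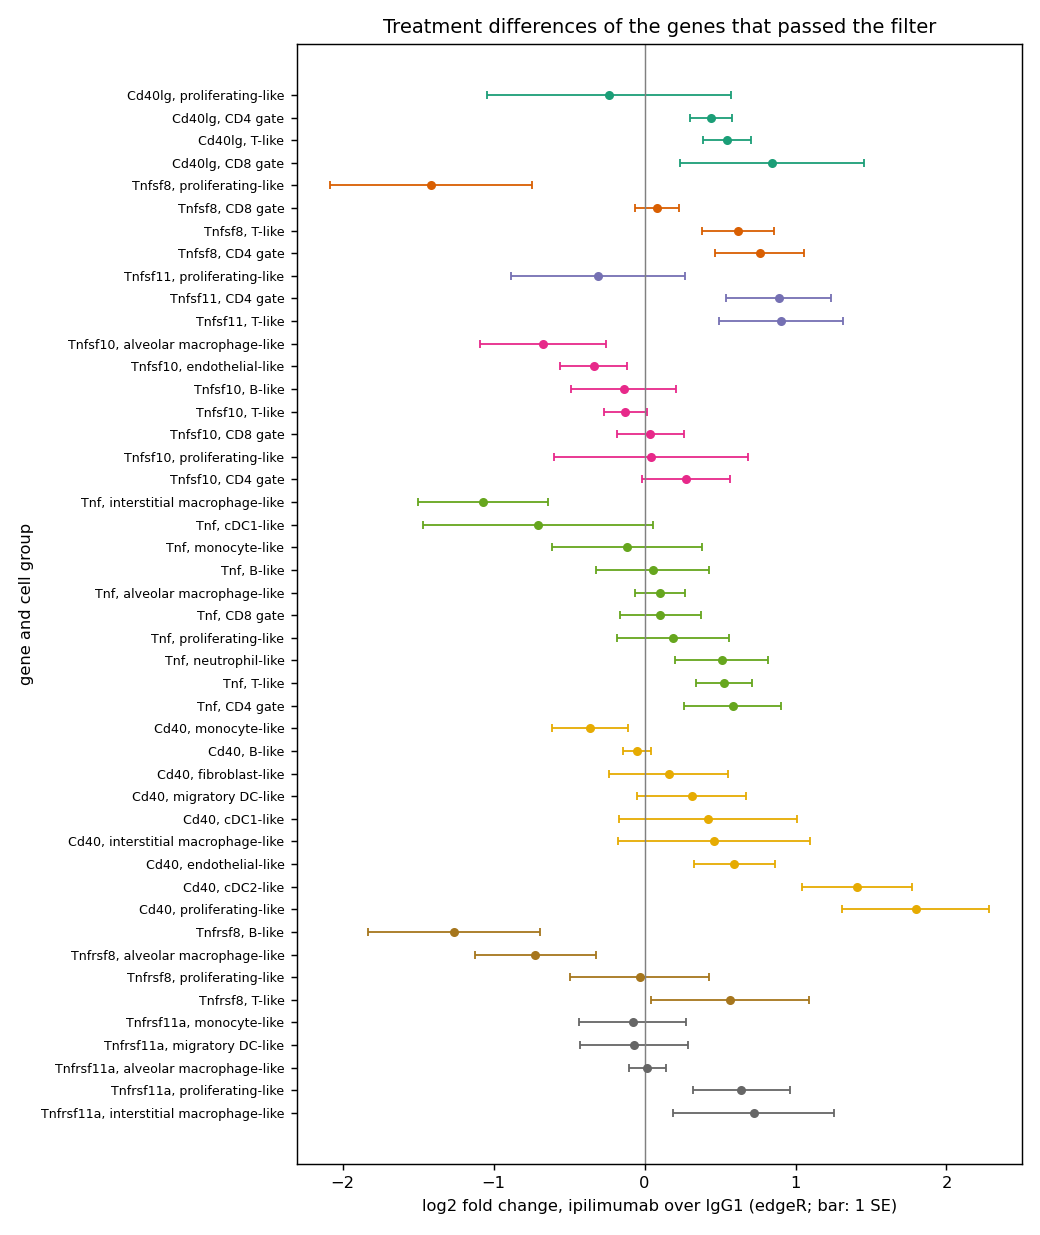
Log2 fold change of ipilimumab over IgG1 (horizontal axis, edgeR, bars 1 SE) for the 46 tested combinations of gene and cell group. The fold changes run from -1.42 for Tnfsf8 to 1.80 for Cd40, both in proliferating-like cells, and none passed the test.

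Genes whose level over the 16 classes was most like that of each member were sought among 14017 genes, as a description with no test, since classes share libraries. For Cd40lg these were Izumo1r (folate receptor 4, Pearson r = 0.996 over 16 classes), Themis, a T cell receptor signalling protein (0.994), and Tnfsf11 (0.993). Tnfsf8 was most like Ifngas1 (0.955), Cxcr6, a chemokine receptor of tissue-resident T cells (0.952), and Tnfsf11 (0.948). Tnfsf11 itself was followed by Cd40lg (0.993), Themis (0.991) and Izumo1r (0.989). Tnfsf10 was nearest to Prx (0.978), Ccdc184 (0.974) and Gm9917 (0.971), and Tnf to Cd300c2 (0.932), Nlrp1b (0.927) and Aph1c (0.919). Among receptors, Cd40 was most like Swap70 (0.916), Phlpp1 (0.881) and Cd83, a marker of mature dendritic cells (0.866). Tnfrsf11a was most like Fxyd2 (0.89), H2-M2 (0.886) and Gm15155 (0.863), and the sparse Tnfrsf8 reached 0.857 with Insl6, 0.854 with Spata32 and 0.836 with Htr7.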

How the data were processed

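Droplet libraries (10x Genomics 3′ v3.1) of the right lungs of 6 mice were used, 1 per mouse, in 2 groups of 3. The deposited values are raw UMI counts per gene and barcode, for filled and empty barcodes alike, which the authors made by aligning reads to mm10. The submitters' processing notes name Cell Ranger 7.0.0, while the file headers and the published methods name other versions. The authors' correction for ambient RNA, filters and cell names come later and were not used here. Nothing in the labels ties same-numbered mice, and replicates are separate animals.

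Barcodes were called as cells by a UMI threshold or, from 500 UMIs up, by a profile unlike the library's ambient RNA (false discovery rate 0.01). Barcodes with fewer than 200 genes or over 10% mitochondrial UMIs were dropped, as were 848 likely doublets (0.8% per 1000 cells). Cells were clustered with Leiden (leidenalg 0.10.2, resolution 0.8, 10 principal components of 2000 variable genes without superfamily genes) and named by markers. Classical and nonclassical monocyte-like clusters were joined after their leading genes were seen. Counts were summed per mouse and class (at least 5 cells), filtered with filterByExpr and tested over all genes with the edgeR 4.0.16 quasi-likelihood test, TMM factors and Benjamini-Hochberg adjustment. Calls needed a log2 fold change of more than 0.3 in either direction with an adjusted p below 0.05. Treatment was fitted without a block, and the CD4 against the CD8 gate with mouse as a block. The SE is the log2 fold change over the square root of F. Subsets of the CD4 gate were compared by exact two-sided sign-flip permutation tests over mice on log2(CPM + 10). CPM divides by total UMIs, without TMM. Limits set from a count of 0 use 3 counts and, like all intervals of counts, cover counting error only.

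All 8 genes are named everywhere. Of the other lists, the called genes are named, at most the 5 of lowest adjusted p per list and comparison, and for each member the 3 genes of highest Pearson r over classes. The members, lists and tests were chosen with earlier results of these data known. Alternatives were other cell calls, doublets kept, ambient RNA subtracted (5%), other clustering settings, marker gates, no count filter, RLE factors, DESeq2 1.42.0, a replicate block and leaving out each mouse. Levels were compared within classes. The edgeR fits (R 4.3.3) were tested on simulated data, whose spread was set and not taken from the mice. Of tested genes changed by 1 on the log2 scale, the treatment fits called 33.3% in the CD4 gate and 30.7% in cDC2-like cells. The fit between the gates called 86.7%. For changes of 2 the shares were 98.95%, 95.35% and 100%. Treatment changes of about 1 or less can thus be missed, and larger ones too for genes that vary more between mice than was set.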

Additional observations from a re-analysis of the deposited data

Results flagged for a closer look

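UMIs of all 8 genes were also found in barcodes that were not called cells (the barcodes of ranks 45000 to 90000 by UMIs), which no comparison used. Over the 6 libraries these barcodes held 11 UMIs of Cd40lg, 66 of Tnfsf8, 40 of Tnfsf11, 85 of Tnfsf10, 287 of Tnf, 114 of Cd40, 11 of Tnfrsf8 and 36 of Tnfrsf11a, each above the 3 counts that a count of 0 allows. Relative to all UMIs of these barcodes Cd40lg ran from 0 to 3.98 CPM and Tnf from 45.4 to 85.0 CPM, beside 62.1 ± 11.8 CPM in alveolar macrophage-like cells (SD, n = 6). Cd40lg ran from 0.821 to 6.75 CPM in the CD8 gate, which overlaps the range of these barcodes, and from 74.0 to 133 CPM in the CD4 gate, which does not. These measures are unlike, since CPM in such barcodes give the make-up of ambient RNA and not its amount in a cell. In B-like cells of the same libraries Cd40lg ran from 0 to 0.137 CPM. Of 20 paired differences of the ligands between T cell groups, none had a mouse far from the other 5 by Dixon's test.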

How the results depend on the processing

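The difference of Cd40lg between the CD4 and the CD8 gate kept its direction and its call in all 14 alternatives (4.84 to 5.30 on the log2 scale), as did that of Tnfsf8 (1.68 to 2.04) and that of Tnfsf11 (3.91 to 4.58), and Tnf was not called in any. Between treatments the count of called combinations stayed at 0 in 15 of 17 alternatives. It was 11 of 117 without a filter on low counts, where 2445 of 303084 tests over all genes were called against 6 of 130835, and the cause was not tested. Of the 11, 3 were in T-like cells and 2 in the CD4 gate, which share cells, and 2 in migratory DC-like cells. B-like, endothelial-like, fibroblast-like and interstitial macrophage-like cells had 1 each. In B-like cells it was Tnfrsf8, which was lower with ipilimumab (edgeR, adjusted p = 0.045). That setting called Cd40lg in T-like cells (0.55, adjusted p = 0.00984), but not in the CD4 gate (adjusted p = 0.0592). In the CD4 gate it called Tnfsf8 (adjusted p = 7.15e-07) and Tnfsf11 (4.64e-06). The count ran from 0 to 1 without each mouse in turn, the 1 being Tnfsf8 in the CD4 gate without ipilimumab replicate 1. Cd40lg in the CD4 gate ran from 0.33 to 0.56 without each mouse and from 0.33 to 0.45 in the other alternatives (adjusted p 0.0592 to 0.762), and in T-like cells from 0.41 to 0.70 without each mouse. Cd40 in cDC2-like cells ran from 0.91 with marker gates to 1.59 and was not called in any. Fold changes near 0 turned sign when mice were left out, namely Cd40 in B-like cells (-0.12 to 0.0096), Tnfrsf11a (-0.0631 to 0.11, with -0.0153 and -0.0366 between) and Tnf (-0.0896 to 0.20) in alveolar macrophage-like cells. With the replicate number as a block Cd40lg in the CD4 gate gave 0.44 and no combination was called. Over all genes the replicate block called 50 tests, DESeq2 288, marker gates 40 and the other alternatives with all mice from 3 to 15, apart from the missing count filter, while leaving out a mouse gave 10 to 78. The deviations of same-numbered mice from their group means correlated at 0.01, -0.03 and -0.17 in the CD4 gate, so the numbers were not taken to pair the mice. The Cd40lg difference between Icos and neither ran from 0.58 to 0.80 without each mouse and from 0.35 to 0.58 in 3 other alternatives. It was lowest with 100 in place of 10 added to the CPM (0.35 ± 0.22, SD, n = 6). With 100 added, the differences of Tnfsf8 and Tnfsf10 between these subsets were 0.46 ± 0.35 and 0.058 ± 0.038. In an alternative chosen after seeing the data, migratory DC-like cells without the cluster scored close to the next class had 290 in place of 193.8 CPM of Cd40 and 209 in place of 131 CPM of Tnfrsf11a. With few cells in a class, values rest on few UMIs, as in the 110 cDC2-like cells.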
